A study of Homo sapiens with 16 samples.

Results

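A set of 154 genes stood higher in U2OS cells given CPT and lower in the same cells given either of 2 other compounds, T4 or T5. U2OS is an established human osteosarcoma line, and CPT is camptothecin, a poison of topoisomerase I. T4 and T5 are code names, and the series calls both of them modulators of APA, alternative polyadenylation. RNA was sequenced after 6 h from 16 libraries, 5 each for CPT, T4 and T5 at 0.5, 2, 5, 10 and 20 µM and 1 for DMSO, the solvent, and the labels name no genetic change or second agent. No condition had a replicate, and the labels do not say whether the dishes were set up on separate days. Members were chosen by their own measured values. A member had a mean of at least 1 FPKM over the 16 libraries and, as the mean over 5, 10 and 20 µM on the log2(FPKM + 1) scale, lay at least 0.6 above the DMSO library with CPT and at least 0.6 below it with both T4 and T5. FPKM is a fragment count corrected for transcript length and for library size, and 0.6 on that scale is 1.52-fold for a well expressed gene and more for a weak one. Of 25270 genes in the matrix, 10600 passed the minimum and 154 of these (1.45%) met the thresholds.

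Camptothecin holds topoisomerase I on the DNA it has cut, which stalls RNA polymerase II within genes and brings on the DNA damage response, including p53. Alternative polyadenylation is the choice between sites at which a nascent transcript is cleaved and given its poly(A) tail, and it can lie in the last exon or, upstream of it, in an intron.

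Because the values of the 5, 10 and 20 µM libraries and of the DMSO library chose the members, they are given as a description. The CPT threshold was met by 1845 of the 10600 genes (17.4%), the T4 threshold by 3710 (35%) and the T5 threshold by 4166 (39.3%). Over the members, the median difference from DMSO was 0.85 with CPT, with a range of 0.60 to 2.60, while the median over all 10600 genes was -0.14. With T4 the members' median was -0.98, between -2.63 and -0.61, and that of all genes was -0.26. With T5 it was -1.02, between -2.63 and -0.60, against -0.33 over all genes. Just inside the thresholds were GPR45, an orphan receptor, B3GNT4, a glycosyltransferase, and SPRED3, of the Sprouty-related family. GPR45 and SPRED3 were at 0.60 with CPT and B3GNT4 was at -0.60 with T5. Just outside were ESRRA, ANKRD49 and ZNF280B, which met the T4 and T5 thresholds and missed the CPT threshold by at most 0.001. All 3 thresholds were met at each of 5, 10 and 20 µM, and not only on the mean, by 64 of the members (0.604% of the genes tested). The genes lay low in DMSO-treated cells: their median in the DMSO library was 5.18 FPKM, against 8.71 FPKM over all genes tested.

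The scaling of the libraries enters directly into these thresholds. When the medians of the libraries were set equal, the median of all genes moved to 0.26 with CPT, 0.27 with T4 and 0.29 with T5, and those of the members to 1.25, -0.44 and -0.40. With that scaling 146 genes met the thresholds, 45 of them among the 154, and with quantile normalization 139 did, 48 of them among the 154. No member turned below DMSO with CPT under either scaling. With T5 the difference turned to just above 0 for 6 members under median centring, namely B3GNT4, C7orf43, GRPEL1, ZNF263, RAB11FIP5 and SPRED3. Under quantile normalization it did so for SPATA2, C7orf43, TMEM140, THAP1, ZNF263 and LZTS2 with T5, and for SPATA2 with T4. In bulk RNA, fewer cells and less RNA per cell cannot be told apart.

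**Figure D1:**
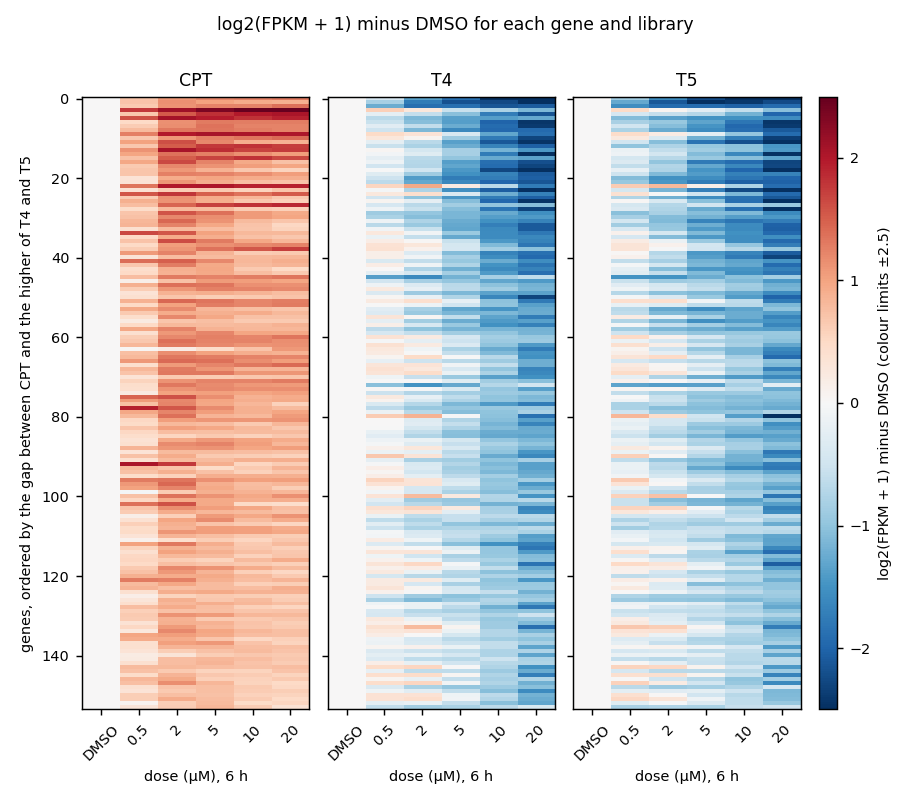
Log2(FPKM + 1) of each of the 154 genes in each library minus that in the DMSO library, with CPT, T4 and T5 in separate panels and doses from DMSO to 20 µM along each panel. Genes are ordered by the gap between the CPT mean and the higher of the T4 and T5 means at 5 to 20 µM, and red is above DMSO and blue below; colour is limited at ±2.5. With CPT at 0.5 µM 153 genes are above DMSO, ZBTB7A being the exception, while most T4 and T5 rows are bluer at 20 µM than at 0.5 µM; ORAI1 and ASF1B are already blue at 0.5 µM, and ASF1B and DNAL4 pale again with dose.

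Promoters of TMEM177, TOB2, CLP1, SESN2 and CHAMP1 are shown as examples from the mitochondrial, RNA processing, stress and chromatin genes described after them. Each runs from 250 bases before to 50 bases after a RefSeq start on GRCh38.p14, read 5′ to 3′ on the gene's strand. Capitals mark matches on either strand to the motifs searched that occur there: the GC box GGGCGG, the CCAAT box CCAAT, the cAMP-response half-site TGACG, the E-box CACGTG and the ETS site ACTTCCG. TMEM177 lies at chr2:119678951-119679250 on the plus strand, TOB2 at chr22:41446752-41447051 on the minus strand and CLP1 at chr11:57657512-57657811 on the plus strand. SESN2 lies at chr1:28259268-28259567 and CHAMP1 at chr13:114314253-114314552, both on the plus strand.
TMEM177: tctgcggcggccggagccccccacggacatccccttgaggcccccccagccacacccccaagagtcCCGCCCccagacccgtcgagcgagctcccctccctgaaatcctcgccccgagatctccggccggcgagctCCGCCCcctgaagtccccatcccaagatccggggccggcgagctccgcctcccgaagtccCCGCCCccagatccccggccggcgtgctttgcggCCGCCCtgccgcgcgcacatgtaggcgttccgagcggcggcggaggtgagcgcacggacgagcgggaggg
TOB2: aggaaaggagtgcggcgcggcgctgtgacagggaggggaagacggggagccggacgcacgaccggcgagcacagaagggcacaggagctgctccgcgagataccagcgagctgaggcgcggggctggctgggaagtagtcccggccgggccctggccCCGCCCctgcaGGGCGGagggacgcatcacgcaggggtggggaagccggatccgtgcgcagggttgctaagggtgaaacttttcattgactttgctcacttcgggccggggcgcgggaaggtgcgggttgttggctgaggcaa
CLP1: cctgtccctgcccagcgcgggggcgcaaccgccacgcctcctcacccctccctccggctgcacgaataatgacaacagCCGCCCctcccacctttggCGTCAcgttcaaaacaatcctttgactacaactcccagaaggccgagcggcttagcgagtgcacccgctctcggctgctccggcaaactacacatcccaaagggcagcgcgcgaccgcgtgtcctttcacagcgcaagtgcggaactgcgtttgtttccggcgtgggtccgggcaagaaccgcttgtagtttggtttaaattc
SESN2: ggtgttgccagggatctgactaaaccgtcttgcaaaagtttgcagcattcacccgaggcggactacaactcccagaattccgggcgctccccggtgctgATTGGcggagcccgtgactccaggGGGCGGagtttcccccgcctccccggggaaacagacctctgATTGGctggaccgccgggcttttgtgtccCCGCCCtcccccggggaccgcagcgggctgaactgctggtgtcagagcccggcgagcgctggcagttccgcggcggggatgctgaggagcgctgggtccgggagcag
CHAMP1: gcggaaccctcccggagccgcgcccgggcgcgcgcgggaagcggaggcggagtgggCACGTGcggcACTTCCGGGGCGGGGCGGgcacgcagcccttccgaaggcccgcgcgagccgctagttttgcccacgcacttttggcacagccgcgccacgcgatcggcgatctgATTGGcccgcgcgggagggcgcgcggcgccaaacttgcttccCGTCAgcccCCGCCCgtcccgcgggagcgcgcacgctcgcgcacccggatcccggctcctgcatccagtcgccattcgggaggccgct
All of these windows hold GC boxes. CHAMP1 alone of these holds an ETS site, which is followed without a gap by GC boxes that share a letter. A promoter was found in the RefSeq table for 122 of the 154 members and for 8523 of the genes tested. The ETS letters were in 24.6% of the members' promoters, against 15% of all of them. GC boxes were in 65.6% of members and 72.2% of all, CCAAT boxes in 30.3% and 36.7%, and TGACG in 29.5% and 35.9%. A TATA box, TATAAA, was in 2.46% and 5.17%, the E-box in 9.84% and 10.5%, and the AP-1 site TGANTCA in 5.74% and 4.38%. The palindromic NRF1 site was in 4.1% and 2.51%, the YY1 site AAGATGGC in 3.28% and 6.18%, and an SRF CArG sequence in 0% and 0.0587%. Median GC content of the windows was 67% in members and 65.7% over all, and the median number of CpGs 28 and 27. These are matches of letters, without a test, and say nothing of binding.

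The largest gaps between CPT and the other compounds were in genes of several kinds. TMEM177, which encodes a mitochondrial membrane protein, led the set. TMEM177 was at 21.6, 28.6, 31.1, 32.1 and 33.6 FPKM with CPT at 0.5, 2, 5, 10 and 20 µM, at 9.54, 4.45, 2.79, 0.971 and 0.558 FPKM with T4 and at 6.59, 3.64, 1.96, 1.17 and 0.803 FPKM with T5 at the same doses, against 13.01 FPKM in DMSO. Each higher dose of CPT gave a higher level and each higher dose of T4 and T5 a lower one, and no T4 or T5 library reached the DMSO level. TOB2, of the BTG/TOB family that recruits the CCR4-NOT deadenylase to mRNA, went the same way. TOB2 was at 18.2, 33.8, 41.7, 46.5 and 48.4 FPKM with CPT at 0.5, 2, 5, 10 and 20 µM, at 9.26, 6.93, 4.83, 2.65 and 1.69 FPKM with T4 and at 8.07, 7.005, 6.32, 4.35 and 2.07 FPKM with T5 at the same doses, against 11.1 FPKM in DMSO. Its level was highest with CPT at 20 µM, where it was lowest with T4 and T5. ORAI1, the pore subunit of the store-operated calcium channel, was already low with T4 and T5 at 2 µM. ORAI1 was at 6.89, 9.98, 10.9, 10.9 and 12.1 FPKM with CPT at 0.5, 2, 5, 10 and 20 µM, at 1.14, 0.362, 0.369, 0.147 and 0.197 FPKM with T4 and at 0.7198, 0.326, 0.328, 0.244 and 0.325 FPKM with T5 at the same doses, against 4.03 FPKM in DMSO. S1PR3, a receptor for sphingosine-1-phosphate, was also low with T4 and T5 from 0.5 µM. S1PR3 was at 13.2, 18.9, 17.3, 15.5 and 16.8 FPKM with CPT at 0.5, 2, 5, 10 and 20 µM, at 1.93, 1.16, 0.832, 0.816 and 0.938 FPKM with T4 and at 1.23, 0.839, 0.677, 0.634 and 0.5903 FPKM with T5 at the same doses, against 3.69 FPKM in DMSO. Its highest level with CPT was at 2 µM. PGF, placental growth factor of the VEGF family, was at 8.42, 11.02, 13.2, 14.7 and 20.4 FPKM with CPT, 3.22, 2.37, 0.8898, 0.609 and 0.269 FPKM with T4 and 2.88, 1.92, 1.32, 0.834 and 0.342 FPKM with T5 from 0.5 to 20 µM, against 1.78 FPKM in DMSO. Of the remaining 12 genes with the largest gaps, INTS5 encodes a subunit of the Integrator complex, which forms the 3′ ends of small nuclear RNAs. INTS5 was at 9.93, 16.1, 18.1, 17.9 and 17.8 FPKM with CPT at 0.5, 2, 5, 10 and 20 µM, at 4.27, 2.704, 1.97, 0.941 and 0.441 FPKM with T4 and at 3.39, 3.02, 2.09, 1.203 and 0.429 FPKM with T5 at the same doses, against 6.74 FPKM in DMSO. TMEM115, a Golgi membrane protein, was at 15.6, 23.2, 26.5, 24.4 and 24.3 FPKM with CPT, 7.803, 5.98, 3.53, 1.84 and 1.04 FPKM with T4 and 6.57, 4.14, 2.89, 1.75 and 1.05 FPKM with T5 from 0.5 to 20 µM, against 9.74 FPKM in DMSO. MFSD5, a molybdate transporter, was at 18.97, 25.5, 28.9, 30.3 and 32.2 FPKM with CPT, 14.1, 12.1, 5.74, 2.68 and 1.54 FPKM with T4 and 13.8, 8.62, 4.404, 2.81 and 1.44 FPKM with T5 from 0.5 to 20 µM, against 11.5 FPKM in DMSO. In all of these the CPT libraries lay above DMSO and the T4 and T5 libraries at 5 to 20 µM below it. EXO5, a nuclease of DNA crosslink repair, was at 15.8, 24.6, 18.2, 14.7 and 14.2 FPKM with CPT, 6.01, 4.21, 2.24, 0.9099 and 0.524 FPKM with T4 and 4.897, 2.99, 1.32, 0.812 and 0.339 FPKM with T5 from 0.5 to 20 µM, against 7.33 FPKM in DMSO. FAM220A was at 20.7, 28.4, 25.7, 24.2 and 23.7 FPKM with CPT, 6.47, 2.95, 1.92, 1.76 and 1.33 FPKM with T4 and 4.49, 2.06, 1.32, 1.49 and 1.82 FPKM with T5 from 0.5 to 20 µM, against 12.3 FPKM in DMSO. Both were highest with CPT at 2 µM. CSRNP2, a nuclear protein, was at 7.85, 11.9, 11.9, 11.5 and 11.2 FPKM with CPT, 2.602, 1.37, 0.6799, 0.313 and 0.344 FPKM with T4 and 1.98, 1.15, 0.735, 0.382 and 0.197 FPKM with T5 from 0.5 to 20 µM, against 4.14 FPKM in DMSO. FAM53C was at 17.3, 28.9, 30.8, 30.2 and 29.9 FPKM with CPT, 9.56, 8.61, 4.77, 2.08 and 1.05 FPKM with T4 and 9.396, 7.73, 5.401, 2.89 and 1.001 FPKM with T5 from 0.5 to 20 µM, against 6.59 FPKM in DMSO. For FAM53C, T4 and T5 were above DMSO at 0.5 and 2 µM, whereas for CSRNP2 they were below it at every dose. INTS5, FAM53C and EXO5 share exonic sequence with another annotated gene, and the strand of the libraries is not given, so their values may hold reads of that gene.

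**Figure D2:**
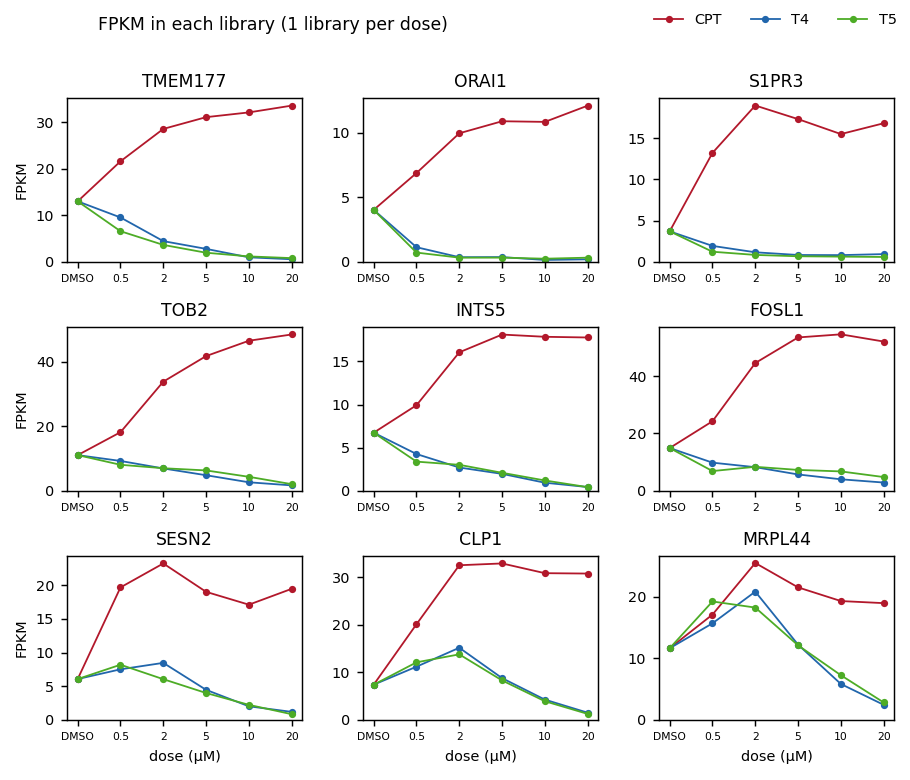
FPKM of 9 of the genes, 1 point per library, against dose in µM with DMSO at the left, and CPT in red, T4 in blue and T5 in green. TMEM177, ORAI1, S1PR3, TOB2, INTS5 and FOSL1 lie below DMSO at all doses of T4 and T5, whereas SESN2, CLP1 and MRPL44 are above DMSO at 0.5 µM of T4 and T5 and below it at 20 µM.

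The doses of 0.5 and 2 µM were not used by the thresholds, although they count in the minimum of 1 FPKM over all 16 libraries, and there the compounds were compared in 6 libraries, with dose as a block, by limma's moderated test on log2(FPKM + 1), 2-sided and Benjamini-Hochberg adjusted over 10600 genes at 0.05. With 1 library per compound and dose, the doses of 0.5 and 2 µM stood in for replicates of a compound. The p-values therefore rest on how far the step between these doses differed among the compounds, and not on scatter between repeated samples. CPT was higher than T4 in 131 of the 154 members, against 30.4% of all genes tested, and lower in 0 (23.4% of all genes). It was higher than T5 in 132 (33.3% of all genes) and lower in 0 (19.2%). Both contrasts were called in 130 members (27.1% of all genes). Of the members, 25 pass the minimum only with the CPT libraries, among them ORAI1, FAM212B, PARS2, TICAM1, HAS3, BCDIN3D and B3GNT4, so that a difference was built into their selection. With the minimum taken over the other 11 libraries, an alternative added after the data were seen, 108 of the remaining 129 members were higher with CPT than with T4 (28.8% of the genes then tested) and 109 than with T5 (31.7%). The balance over all genes depends on scaling against T5, where 3525 genes were higher and 2034 lower as deposited, but 2644 higher and 2759 lower after median centring, when 128 members were called higher and 0 lower. The median difference over members was 1.0 against T4, between 0.04 and 2.74, and 1.18 against T5, between 0.15 and 3.06 (log2 scale, median SE 0.20), whereas over all genes it was 0.10 and 0.13. Both CPT libraries were above both T4 libraries in 146 members (35.7% of all genes) and above both T5 libraries in 147 (36.4%). The counts rested on the T4 and T5 libraries at 2 µM and on the filter and block. Without the T4 library at 2 µM 41 members were called against T4, and without the T5 library at 2 µM 68 were called against T5. With no filter on low values the counts were 44 against T4 and 57 against T5, and with no dose block 55 and 88. The filter, the block and the trend cannot alter a gene's fitted difference, only its error. A difference below 0 appeared for at most 4 members, when the CPT, T4 or T5 library at 2 µM was left out.

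**Figure D3:**
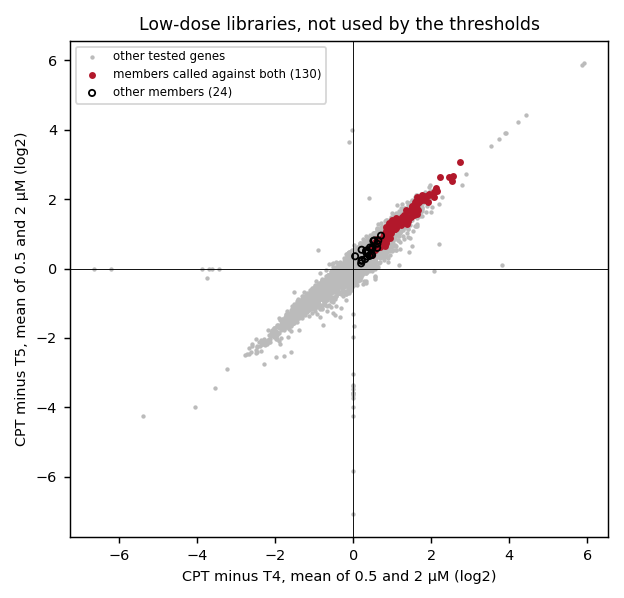
Difference of CPT minus T5 against CPT minus T4 over the 0.5 and 2 µM libraries, in log2(FPKM + 1), for each of 10600 genes. Filled red points are the 130 members called in both contrasts, open points the other 24 members, and grey points all other genes; all 154 members lie in the upper right part, where CPT is higher than both.

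The 10 members with the largest differences in this test, by the smaller of the contrasts, were S1PR3, FAM212B, ASF1B, ORAI1, FAM220A, DNAL4, SESN1, TRIM4, MOCS3 and PHLDA3. Of these, FAM212B and ORAI1 pass the minimum of 1 FPKM only with the CPT libraries. A higher level with CPT was built into the selection of both, and no p-value is given for them. S1PR3 differed by 2.74 ± 0.24 from T4 (log2, SE, limma adjusted p = 0.00308) and by 3.06 ± 0.24 from T5 (log2, SE, limma adjusted p = 0.00379). FAM212B, which encodes an inhibitor of the PAK4 kinase, differed by 2.55 ± 0.10 from T4 and by 2.67 ± 0.10 from T5 (log2, SE). Its level was 10.2, 7.503, 5.62, 4.4 and 4.001 FPKM with CPT, 0.839, 0.5104, 0.491, 0.529 and 0.556 FPKM with T4 and 0.689, 0.388, 0.374, 0.277 and 0.2101 FPKM with T5 from 0.5 to 20 µM, against 1.91 FPKM in DMSO. ASF1B, a histone chaperone of DNA replication, differed by 2.52 ± 0.20 from T4 (log2, SE, limma adjusted p = 0.0029) and by 2.53 ± 0.20 from T5 (log2, SE, limma adjusted p = 0.00379). ASF1B was at 21.03, 30.6, 29.5, 30.2 and 31.3 FPKM with CPT at 0.5, 2, 5, 10 and 20 µM, at 3.96, 3.28, 4.64, 6.22 and 7.24 FPKM with T4 and at 3.57, 3.59, 4.43, 5.27 and 6.102 FPKM with T5 at the same doses, against 11.8 FPKM in DMSO. With T4 and T5 it was lowest at low doses and came part of the way back toward DMSO at 20 µM. DNAL4, a dynein light chain, did the same, at 5.09, 10.2, 9.14, 8.47 and 8.37 FPKM with CPT, 1.19, 0.588, 0.837, 1.75 and 2.26 FPKM with T4 and 0.792, 0.728, 0.743, 1.52 and 2.71 FPKM with T5 from 0.5 to 20 µM, against 3.48 FPKM in DMSO. TRIM4, of the tripartite motif ubiquitin ligases, was at 8.402, 9.86, 5.99, 4.07 and 3.93 FPKM with CPT, 1.597, 1.24, 0.941, 0.5996 and 0.637 FPKM with T4 and 1.45, 0.986, 0.659, 0.595 and 0.407 FPKM with T5 from 0.5 to 20 µM, against 2.63 FPKM in DMSO. MOCS3, which works in molybdenum cofactor synthesis and tRNA thiolation, was at 7.37, 14.4, 12.5, 9.896 and 8.93 FPKM with CPT, 1.805, 1.65, 1.35, 1.16 and 0.801 FPKM with T4 and 1.52, 1.95, 1.48, 1.404 and 0.709 FPKM with T5 from 0.5 to 20 µM, against 4.18 FPKM in DMSO. FAM212B, ASF1B, DNAL4, SESN1 and PHLDA3 share exonic sequence with another annotated gene.

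No difference between T4 and T5 passed this test in the members. Between them 0 of 154 were called with limma, against 0.00943% of all genes higher with T4 and 0.0189% lower. An unadjusted limma p under 0.05 was found for 0 members in either direction (6.67% of all genes higher and 2.06% lower). The error was shared by all 3 compounds and took in any difference among them in the step from 0.5 to 2 µM. Over that step the members' median difference from DMSO rose with CPT, from 0.64 to 1.08, and fell with T4, from -0.04 to -0.38. Such opposite steps widen the intervals, so the 0 counts cannot show that T4 and T5 were closer in members than in other genes. The median difference of T4 minus T5 was 0.14, between -0.14 and 0.43, against 0.08 over all genes, and it was 0.013 after median centring and 0.033 after quantile normalization. The median 95% interval ran between -0.38 and 0.65, with the outermost bounds at -0.75 and 1.31. A difference within a gene's interval was not excluded by these libraries. Without the CPT library at 0.5 µM 5 members were called higher with T4, and without the CPT library at 2 µM 6 were. At 5 to 20 µM, where the members were chosen for low levels with both, the T4 and T5 means lay within 0.3 of each other in 139 of the 154.

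The members were followed over dose as a description, since 3 of the 5 doses chose them. The members' median with CPT was 0.64 at 0.5 µM, 1.08 at 2 µM, 0.95 at 5 µM, 0.82 at 10 µM and 0.82 at 20 µM (log2 difference from DMSO). With T4 it was -0.04, -0.38, -0.74, -1.01 and -1.35 at the same doses, and with T5 -0.18, -0.50, -0.80, -0.96 and -1.35. The CPT median was highest at 2 µM, while those of T4 and T5 were lower at each higher dose. CPT was highest at 2 µM in 78 members (14.4% of all genes), at 5 µM in 37 (7.14%) and at 20 µM in 30 (19.8%), and CPT was above DMSO at every dose in 153 (32.8%). T4 was lower at each higher dose in 98 members (18.1% of all genes) and T5 in 102 (21%). At 2 µM, T4 and T5 were both at least 0.6 below DMSO in 53 members (23.1%) and both above DMSO in 31 (31.7%). These medians and counts rest on the DMSO library and, for the shapes over dose, mostly on the 5, 10 and 20 µM libraries that the thresholds used, so they carry no test.

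**Figure D4:**
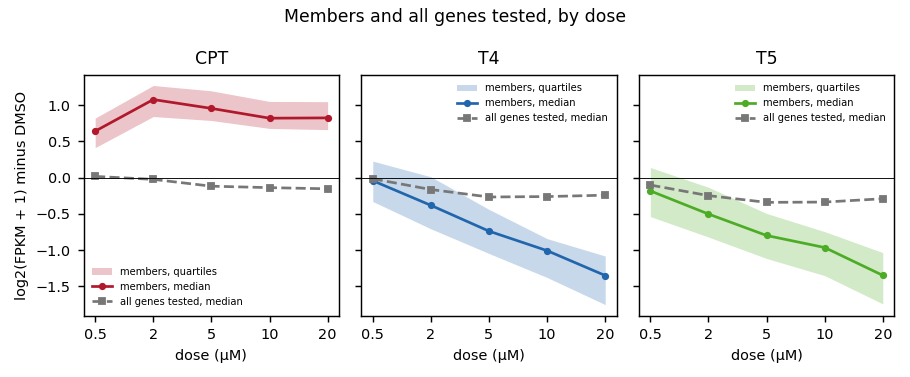
Median over the 154 genes, as a line with quartiles shaded, and median over all 10600 genes, as a dashed line, of log2(FPKM + 1) minus DMSO against dose in µM, for CPT, T4 and T5. The members' CPT median peaks at 1.08 at 2 µM, while the T4 and T5 medians are lower at each higher dose and reach -1.35 at 20 µM.

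Members were sorted by known role after the set was seen, and the shares called in each role stand against 85.1% of all members called higher than T4 and 85.7% called higher than T5 (30.4% and 33.3% of all genes). No role was tested against the others. The counts by role include members that pass the minimum of 1 FPKM only with the CPT libraries. For these a higher level with CPT was built into the selection. They include ORAI1, HAS3, PARS2, TICAM1, BCDIN3D and the zinc finger genes ZNF525, ZIK1, ZNF436 and ZNF649. The 6 genes of p53 and stress signalling were SESN1, SESN2, PHLDA3, CHAC1, BCL2L11 and BAG3, and 5 were called higher with CPT in each contrast. SESN2 encodes a sestrin, which restrains mTORC1 signalling under stress. SESN2 was at 19.7, 23.2, 19.03, 17.1 and 19.5 FPKM with CPT at 0.5, 2, 5, 10 and 20 µM, at 7.51, 8.47, 4.46, 2.01 and 1.19 FPKM with T4 and at 8.19, 6.04, 3.99, 2.23 and 0.837 FPKM with T5 at the same doses, against 6.06 FPKM in DMSO. Every CPT library was above every T4 and T5 library, and from 5 µM on T4 and T5 were below DMSO. SESN1, the other sestrin among them, was at 15.2, 12.4, 6.36, 4.65 and 5.097 FPKM with CPT, 2.83, 1.99, 1.35, 0.801 and 0.537 FPKM with T4 and 2.503, 1.498, 0.939, 0.568 and 0.181 FPKM with T5 from 0.5 to 20 µM, against 2.92 FPKM in DMSO. Its CPT level was highest at 0.5 µM, unlike that of SESN2. PHLDA3, a p53 target that restrains AKT, was at 37.2, 39.5, 32.3, 24.8 and 26.1 FPKM with CPT, 10.1, 8.46, 6.46, 5.11 and 3.96 FPKM with T4 and 8.48, 7.16, 5.41, 4.82 and 4.19 FPKM with T5 from 0.5 to 20 µM, against 13.5 FPKM in DMSO, and differed by 1.94 ± 0.13 from T4 (log2, SE, limma adjusted p = 0.0029) and by 2.16 ± 0.13 from T5 (log2, SE, limma adjusted p = 0.0033). CHAC1, which degrades glutathione under the ATF4 response, was at 15.9, 19.9, 14.7, 12.2 and 13.4 FPKM with CPT, 5.62, 4.505, 3.06, 1.92 and 1.596 FPKM with T4 and 5.21, 5.44, 5.21, 3.95 and 2.39 FPKM with T5 from 0.5 to 20 µM, against 7.39 FPKM in DMSO. BCL2L11, the BH3-only protein BIM, was at 6.72, 7.01, 5.99, 5.46 and 5.49 FPKM with CPT, 3.63, 2.94, 1.399, 0.565 and 0.739 FPKM with T4 and 3.98, 1.99, 1.47, 0.931 and 0.657 FPKM with T5 from 0.5 to 20 µM, against 2.15 FPKM in DMSO. BAG3, an HSP70 co-chaperone, was at 12.4, 18.5, 19.8, 20.8 and 21.3 FPKM with CPT, 11.2, 10.5, 5.92, 3.37 and 1.68 FPKM with T4 and 10.8, 9.196, 5.82, 3.84 and 1.83 FPKM with T5 from 0.5 to 20 µM, against 8.43 FPKM in DMSO. It was not called, and differed by 0.45 ± 0.21 from T4 (log2, SE, limma adjusted p = 0.119) and by 0.56 ± 0.21 from T5 (log2, SE, limma adjusted p = 0.0711). Over the 30 tested p53 targets of a textbook list, 24 were higher with CPT than with T4 and 0 lower, and 23 were higher than with T5 and 0 lower, but 3 of the 30 were members. The median difference of that list was 1.07 from T4 and 0.96 from T5, against 0.10 and 0.13 over all genes. Of 15 genes of the integrated stress response, 12 were higher and 2 lower with CPT than with T4, 12 higher and 1 lower than with T5, and 2 were members, with median differences of 0.73 and 0.56. Of 14 BCL2 family genes 1 was a member, and of 11 heat shock genes 1. Of 9 tested BTG and TOB genes 1, TOB2, was a member. Members were found in 8 of 23 such lists, and 15 lists held none. These lists were written with earlier results of these data known.

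Signalling and inflammatory regulators made up 9 members, of which 8 were called higher with CPT than with T4 and 9 than with T5. FOSL1 encodes FRA-1, a subunit of the AP-1 transcription factor. FOSL1 was at 24.2, 44.5, 53.5, 54.5 and 52.02 FPKM with CPT at 0.5, 2, 5, 10 and 20 µM, at 9.82, 8.25, 5.71, 4.02 and 2.89 FPKM with T4 and at 6.89, 8.38, 7.29, 6.77 and 4.804 FPKM with T5 at the same doses, against 14.9 FPKM in DMSO. Among 22 immediate early genes tested it was the member, while 6 were higher and 4 lower with CPT than with T4, with a median difference of -0.005. Against T5, 6 were higher and 8 lower, with a median of -0.12. NFKBIE, an inhibitor of NF-κB, was at 7.23, 8.62, 6.6, 6.195 and 5.91 FPKM with CPT, 2.503, 1.39, 0.722, 0.5405 and 0.777 FPKM with T4 and 1.63, 0.755, 0.445, 0.7102 and 1.13 FPKM with T5 from 0.5 to 20 µM, against 3.26 FPKM in DMSO. It was the member among 15 NF-κB targets tested, of which 10 were higher and 1 lower with CPT than with T4, with a median difference of 0.67, and 8 higher and 1 lower than with T5, with a median of 0.48. TICAM1, the TRIF adaptor of Toll-like receptors, was at 4.08, 7.72, 8.83, 9.68 and 8.54 FPKM with CPT, 1.601, 0.899, 0.5496, 0.282 and 0.203 FPKM with T4 and 1.26, 0.879, 0.594, 0.477 and 0.215 FPKM with T5 from 0.5 to 20 µM, against 2.05 FPKM in DMSO. ARID5A, an RNA-binding protein that stabilises inflammatory mRNAs, was at 16.01, 31.6, 26.9, 24.04 and 24.99 FPKM with CPT, 7.02, 4.74, 3.38, 2.498 and 1.86 FPKM with T4 and 5.92, 4.08, 3.27, 2.899 and 1.92 FPKM with T5 from 0.5 to 20 µM, against 6.78 FPKM in DMSO. TRAF4, an adaptor of the TNF receptor family, was at 20.9, 26.4, 25.5, 21.9 and 20.2 FPKM with CPT, 7.94, 6.195, 5.46, 4.57 and 3.39 FPKM with T4 and 6.698, 5.86, 5.37, 5.47 and 4.03 FPKM with T5 from 0.5 to 20 µM, against 9.26 FPKM in DMSO. These 3 were chosen after their values were seen. All of these were low with T4 and T5 at the highest doses and stayed above DMSO with every dose of CPT.

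RNA processing and translation gave 11 members, of which 9 were called against T4 and 8 against T5 (85.1% and 85.7% of all members, 30.4% and 33.3% of all genes). At 2 µM, T4 and T5 were both above DMSO in 5 of the 11 (20.1% of all members, 31.7% of all genes). CLP1, an RNA kinase of the cleavage and polyadenylation machinery, was among them. T4 and T5 were also both above DMSO at 2 µM in 5 of the 12 cell surface, secreted and cytoskeletal members. CLP1 was at 20.1, 32.5, 32.9, 30.9 and 30.8 FPKM with CPT at 0.5, 2, 5, 10 and 20 µM, at 11.2, 15.2, 8.78, 4.26 and 1.505 FPKM with T4 and at 12.1, 13.8, 8.296, 3.91 and 1.25 FPKM with T5 at the same doses, against 7.403 FPKM in DMSO. It was above DMSO at 0.5, 2 and 5 µM of T4 and T5 and below it at 10 and 20 µM. CLP1 was the member among 20 tested genes of cleavage and polyadenylation, of which 7 were higher and 4 lower with CPT than with T4, with a median difference of -0.12, and 6 higher and 3 lower than with T5, with a median of -0.05. SMG8, which acts in nonsense-mediated decay, was at 22.2, 33.3, 31.1, 28.4 and 29.6 FPKM with CPT, 13.8, 16, 10.03, 5.23 and 2.69 FPKM with T4 and 16, 15.9, 10.8, 7.13 and 2.78 FPKM with T5 from 0.5 to 20 µM, against 11.7 FPKM in DMSO. YTHDF1, a reader of N6-methyladenosine, was at 48.97, 58.7, 55.9, 54.4 and 52.7 FPKM with CPT, 43.2, 49.4, 33.4, 17.3 and 8.901 FPKM with T4 and 49.02, 43.03, 28.7, 17.5 and 7.48 FPKM with T5 from 0.5 to 20 µM, against 34.4 FPKM in DMSO, and was not called at low doses, where CPT differed by 0.21 ± 0.13 from T4 (log2, SE, limma adjusted p = 0.205) and by 0.22 ± 0.13 from T5 (log2, SE, limma adjusted p = 0.191). NOB1, the endonuclease that finishes the small ribosomal RNA, was at 37.1, 49.04, 43.5, 42.2 and 39.7 FPKM with CPT, 36.1, 37.2, 27.9, 15.5 and 7.48 FPKM with T4 and 35.8, 35.9, 28.4, 17.9 and 7.88 FPKM with T5 from 0.5 to 20 µM, against 26.8 FPKM in DMSO. BCDIN3D, an RNA methyltransferase, was the opposite case, at 1.45, 3.21, 3.25, 3.16 and 3.26 FPKM with CPT, 0.444, 0.264, 0.158, 0.121 and 0.0824 FPKM with T4 and 0.373, 0.213, 0.1101, 0.124 and 0.05098 FPKM with T5 from 0.5 to 20 µM, against 1.099 FPKM in DMSO. GSPT2 has a close paralog in GSPT1, with which it may share reads. SMG8, YTHDF1, NOB1, BCDIN3D and GSPT2 were chosen after their values were seen.

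Mitochondrial proteins made up 13 members, of which 10 were called in each contrast (85.1% and 85.7% of all members, 30.4% and 33.3% of all genes). MRPL44, a protein of the mitochondrial ribosome, was the least separated at low dose. MRPL44 was at 17.1, 25.5, 21.5, 19.3 and 18.96 FPKM with CPT at 0.5, 2, 5, 10 and 20 µM, at 15.7, 20.8, 12.2, 5.82 and 2.44 FPKM with T4 and at 19.2, 18.2, 12.1, 7.25 and 2.82 FPKM with T5 at the same doses, against 11.6 FPKM in DMSO. It was above DMSO with all 3 compounds at 0.5, 2 and 5 µM, and at low doses CPT differed by 0.20 ± 0.17 from T4 (log2, SE, limma adjusted p = 0.358) and by 0.15 ± 0.17 from T5 (log2, SE, limma adjusted p = 0.484). C10orf2 encodes the Twinkle helicase of mitochondrial DNA, at 17.9, 21.2, 18.1, 15.4 and 14.5 FPKM with CPT, 9.68, 7.701, 3.92, 1.62 and 0.863 FPKM with T4 and 9.41, 6.8, 3.92, 1.77 and 0.571 FPKM with T5 from 0.5 to 20 µM, against 9.22 FPKM in DMSO. PARS2, the mitochondrial prolyl-tRNA synthetase, was at 3.83, 5.71, 5.497, 5.06 and 4.74 FPKM with CPT, 0.666, 0.3799, 0.321, 0.115 and 0.08198 FPKM with T4 and 0.643, 0.375, 0.283, 0.112 and 0.0672 FPKM with T5 from 0.5 to 20 µM, against 1.902 FPKM in DMSO. PARS2 was at or below 0.666 FPKM with every dose of T4 and T5 and above its DMSO level with every dose of CPT. Of 77 mitochondrial ribosomal protein genes tested 5 were members, and of 96 genes with symbols that start with RPS or RPL 0 (1.45% of all genes tested). The latter group was formed by symbol alone and can hold genes other than those of cytosolic ribosomal proteins. MRPL44, C10orf2 and PARS2 were chosen after their values were seen, and MRPL44 shares exonic sequence with an antisense gene.

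Genes of DNA repair, chromatin and cell division gave 10 members, of which 10 were called in each contrast (85.1% and 85.7% of all members, 30.4% and 33.3% of all genes). CHAMP1, a chromosome alignment protein, was at 25.8, 33.5, 31.1, 28.5 and 26.8 FPKM with CPT, 11.7, 9.904, 6.59, 2.98 and 1.38 FPKM with T4 and 11.3, 8.79, 5.38, 3.38 and 1.41 FPKM with T5 from 0.5 to 20 µM, against 12.4 FPKM in DMSO. DCLRE1B, the telomere nuclease Apollo, was at 19.6, 25.9, 22.3, 19.1 and 17.7 FPKM with CPT, 11.6, 7.98, 3.69, 1.603 and 0.692 FPKM with T4 and 9.97, 6.44, 3.55, 2.21 and 0.873 FPKM with T5 from 0.5 to 20 µM, against 11.7 FPKM in DMSO. SUV39H1, a histone H3 lysine methyltransferase, was at 13.3, 16.4, 16.5, 15.4 and 17.1 FPKM with CPT, 9.87, 5.58, 2.88, 1.702 and 0.865 FPKM with T4 and 7.23, 4.01, 2.44, 1.34 and 0.498 FPKM with T5 from 0.5 to 20 µM, against 10.2 FPKM in DMSO. CDCA5, known as sororin, which holds sister chromatids together, was at 48.8, 66.3, 67.1, 63.5 and 62.6 FPKM with CPT, 38.4, 39.5, 32.7, 23.5 and 13.96 FPKM with T4 and 37.7, 38.8, 34.5, 26.9 and 13.1 FPKM with T5 from 0.5 to 20 µM, against 36.5 FPKM in DMSO. These 4 were chosen after their values were seen. None of the 20 tested genes of a mitotic list was a member, and 15 of them were lower with CPT than with T4 and 0 higher, with a median difference of -0.97, and 13 lower and 1 higher than with T5, with a median of -0.67.

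Zinc finger and related DNA-binding proteins formed the largest group, with 27 members, of which 21 were called in each contrast (85.1% and 85.7% of all members, 30.4% and 33.3% of all genes). Genes named ZNF were 20 of these, 13% of the members and 2.33% of the genes tested. Of the 247 ZNF genes tested, 172 met the T4 and T5 thresholds (33.8% of all genes tested). The CPT threshold was met by 45 of the 247 (17.4% of all genes tested). The median of those 247 genes was -0.08 with CPT, -0.95 with T4 and -1.02 with T5. At low doses 127 of them were higher and 28 lower with CPT than with T4, and 147 higher and 19 lower than with T5. ZNF697 was at 13.1, 20.7, 16.4, 12.8 and 11.9 FPKM with CPT, 6.28, 3.71, 2.36, 1.81 and 1.502 FPKM with T4 and 4.84, 2.71, 1.55, 1.26 and 1.42 FPKM with T5 from 0.5 to 20 µM, against 6.98 FPKM in DMSO. ZNF263 was at 10.1, 10.3, 9.87, 9.68 and 9.98 FPKM with CPT, 7.86, 8.34, 5.4, 2.81 and 1.23 FPKM with T4 and 8.43, 8.13, 5.79, 3.59 and 1.37 FPKM with T5 from 0.5 to 20 µM, against 5.402 FPKM in DMSO, and its mean with T5 was below DMSO as deposited but not after median centring or quantile normalization. Cell surface, secreted and cytoskeletal genes gave 12 members, of which 10 were called in each contrast, and HAS3, a hyaluronan synthase, was at 3.24, 5.76, 7.06, 7.67 and 8.17 FPKM with CPT, 0.851, 0.549, 0.355, 0.242 and 0.187 FPKM with T4 and 0.821, 0.506, 0.766, 0.4395 and 0.297 FPKM with T5 from 0.5 to 20 µM, against 1.48 FPKM in DMSO. ZNF697, ZNF263 and HAS3 were chosen after their values were seen. The other 66 members were given no role.

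The members were short genes with few exons. Their structure was read from GENCODE 29 on GRCh38, in which 153 of the 154 symbols and 10458 of 10600 genes were found. Median span was 9908 bases in members and 26320 bases over all genes, and the median number of exons 4 and 9. Genes that met the CPT threshold but not both others had a still shorter median span, of 8105 bases, and a median of 6 exons. A short span was therefore not particular to the members. In genes that met both T4 and T5 thresholds but not that of CPT, the medians were 33640 bases and 9 exons. A span of 50 kb or more was found for 1 member, or 0.654%, against 30.8% of all genes, 5.09% of genes that met the CPT threshold but not both others and 36.4% of those that met both T4 and T5 thresholds but not that of CPT. At most 3 exons were annotated for 40.5% of members, against 25.9% with the CPT threshold but not both others, 12.7% with both T4 and T5 thresholds but not that of CPT and 13.9% of all genes. The share of members was 4.27% among genes of at most 3 exons, 2.19% among those of 4 to 8 and 0.255% among those of 9 or more. S1PR3, MOCS3, CHAMP1 and GSPT2 have 1 exon each, and TMEM177, TOB2 and INTS5 have 2.

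The coding sequence of members also lay mostly in the last exon. At least 50% of it was there in 82 of the 151 coding members, or 54.3%, against 19.3% of genes that met the CPT threshold but not both others, 16.3% of those that met both T4 and T5 thresholds but not that of CPT and 12.7% of all genes. Of the 1285 genes tested with that structure 6.38% were members, against 0.78% of the 8842 others. Among genes of 4 or more exons the shares were 6.61% and 0.711%, and among genes of 1 to 3 exons 6.26% and 2.21%. Many of the members of 4 or more exons with that structure were zinc finger genes, among them ZNF155, ZNF614, ZNF649, ZNF468, ZNF12, ZIK1 and GLI4. In the low-dose libraries, which the thresholds did not use, CPT was called higher than T4 in 53.9% of genes with that structure and 27.3% of the others, and higher than T5 in 56.7% and 30.3%. Among genes of 1 to 3 exons the gap was narrower, at 57% and 48.2% against T4 and 57.3% and 49.4% against T5. Among genes of 4 or more exons it was 48% and 26.3% against T4 and 55.7% and 29.4% against T5. Of those 82 members, TMEM177, TOB2, S1PR3, MFSD5, MOCS3 and CHAMP1 had all of their coding sequence in the last exon. Members at least 0.6 below DMSO with T4 and T5 at 2 µM had a share of 53.8% with that structure, and those still above DMSO 54.8%. These shares carry no test, and the parts of length, exon number, level and the zinc finger family in them were not tested.

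**Figure D5:**
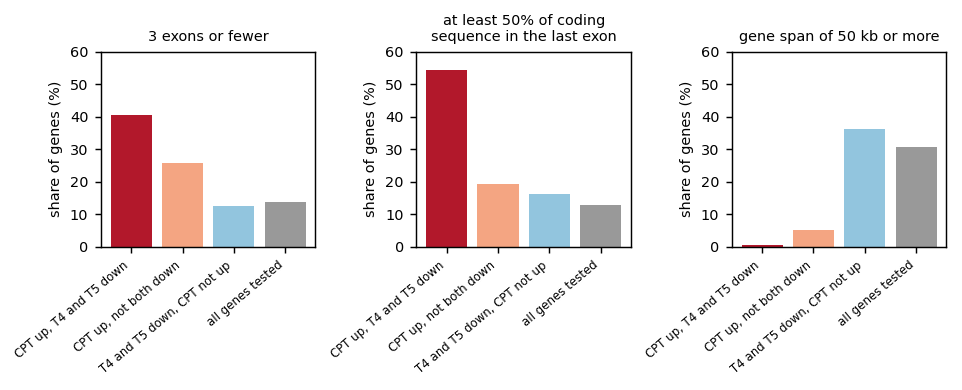
Share in percent of genes with at most 3 exons, with at least 50% of the coding sequence in the last exon and with a span of 50 kb or more. Bars stand for the 154 members, genes that met the CPT threshold without both others, genes that met both T4 and T5 thresholds without CPT and all genes tested. The members have the highest share in the first 2 panels, at 40.5% and 54.3%, and the lowest in the third, at 0.654%.

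Libraries differed in depth. Relative depth, from the steps between low FPKM values, was 0.639 to 0.997 of that of the DMSO library. It moved with dose for T4, from 0.943 at 0.5 µM to 0.758 at 20 µM, and was lower at 10 and 20 µM than at 0.5 to 5 µM for CPT, while T5 had no order. Its part in the dose patterns was not tested. FPKM summed to between 238669 and 285143. The largest sums were with T5 at 5 µM and with CPT at 5, 10 and 20 µM. Of 8 markers of bone and osteosarcoma, 6 were at 1 FPKM or more in DMSO, namely RUNX2, ALPL, COL1A1, SPARC, SPP1 and VIM, while COL1A2 and MEPE were not. Of 5 blood markers 0 were, of 5 epithelial ones EPCAM was and of 3 neuronal ones SNAP25 was. An exact 0 in such a table may be a failed estimate. Of 153 members, 65 share exonic sequence with another gene (42.5%), against 40% of all genes. Besides the genes named for this above, they include BCL2L11, TRAF4, SMG8, NOB1, BCDIN3D, SUV39H1, ZNF263 and HAS3, whose values may also hold reads of the other gene.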

How the data were processed

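The authors deposited 1 matrix of FPKM values for 16 libraries of U2OS cells, per the file headers. The submitters' processing notes name GSNAP, Cufflinks, hg19 and GRCh37. What each did, its version, the annotation and total depth: not given in the sources used here. After 2 inner header lines, 1 incomplete line and 220 identical repeats were left out, 25270 genes remained, 4531 of them at 0 in every library. FPKM cannot be turned back into whole fragments here, so no count test was run. Values were taken as log2(FPKM + 1), with no further scaling, and fold changes on that scale understate those of weak genes.

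Low-dose contrasts were fitted with limma 3.58.1 in R 4.3.3 on 6 libraries, with dose as a block, a mean-variance trend and 2 residual degrees of freedom. No DMSO library entered. The filter on mean FPKM used all 16 libraries. The test was tried on simulated data that held no step between doses. That trial does not bear on how the step differed among the compounds. Gene structure came from GENCODE 29 and promoters from RefSeq on GRCh38.p14, matched by symbol, with older symbols traced through RefSeq. Tables were handled with pandas 2.3.3.

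Members and gene lists were chosen with earlier results of these data known. Named genes were the 12 with the largest gap between the CPT mean and the higher of the T4 and T5 means, up to 10 with the largest low-dose differences called in both CPT contrasts, members of the lists, the 3 nearest genes on each side of the thresholds, and any called between T4 and T5. Alternatives changed the pseudocount, the filter, the scaling, the block, the trend, the thresholds and the libraries used.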

Additional observations from a re-analysis of the deposited data

How the results depend on the processing

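The number of members was 273 with a pseudocount of 0.1, 85 with a mean FPKM of at least 5, 253 and 21 with thresholds of 0.5 and 1, and 64 where each dose had to pass. Leaving out 1 of the high doses gave 127 to 166. The members called higher with CPT than with T4 numbered 131, but 44 with no filter, 66 of 85 with the minimum of 5 FPKM and 55 with no dose block, and 41 to 152 when a library was left out. Against T5 they numbered 132, but 57 with no filter and 68 of 85 with the minimum of 5 FPKM, and 68 to 152 when a library was left out. Between T4 and T5 the count of members was 0 to 6 when a library was left out.

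Over all genes, limma called 5708 between CPT and T4, 3181 with the minimum of 5 FPKM, 887 with no dose block and 1847 to 7142 without a library. Between CPT and T5 it called 5559, 3050 with the minimum, 1170 with no dose block and 1937 to 7002 without a library. Between T4 and T5 it called 3, and 1 each with no filter, the minimum of 5 FPKM, quantile normalization or no trend, and 4 to 795 without a library. A higher minimum leaves fewer genes to test. The cause of the other changes was not tested. For the 29 named genes, 720 values under the alternatives kept their direction and side of the threshold, 53 lost the call, 7 gained it and no called value changed sign. Part of these values could not change direction. A change of filter, block or trend leaves the fitted difference as it was. So does leaving out a library of the compound that is not in the contrast. There only the call could move, so the total is no measure of how stable the directions were. At 0.5 µM alone the members' median differences of CPT from T4 and T5 were 0.70 and 0.82, and at 2 µM alone 1.36 and 1.46. The dose block is the one pairing the labels allow, since they give no replicate numbers. With 1 library per condition and unknown depth, small differences in weak genes were not detectable.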
